A study of Mus musculus with 8 samples.

Results

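The OCT4 libraries made by hmC-Seal were compared with the OCT4 libraries made by bisulfite conversion, of which only methylated reads had been kept. CUT&RUN, in which an antibody guides a nuclease to a bound protein so that the DNA around it is cut free, was done for OCT4 in male E14 mouse embryonic stem cells, grown without feeders in N2B27+2i medium and labelled as strain C57BL/6J. The members are the distinct regions on chromosomes 1 to 19 and X in the peak lists of hmC-Seal libraries 1 and 2 and bisulfite libraries 1 and 2, numbered by replicate, taken by library and chromosome and not by any measured value. They number 19189 of the 19575 such regions in the 6 OCT4 lists of the series, and the other 386 belong to 2 conventional libraries, which carry no information on cytosine modification. All of these libraries came from 1 untreated cell line with no genetic change named in the labels. The labels set the hmC-Seal and bisulfite groups apart by what was done to the released DNA and give no difference in the treatment of the cells. With 2 libraries in each group and 1 line, the spread between cell lines was not measured.

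OCT4, encoded by Pou5f1, is a POU-domain transcription factor that keeps embryonic stem cells pluripotent, often together with SOX2, and it binds an octamer sequence. TET enzymes oxidise 5-methylcytosine to 5-hydroxymethylcytosine, a mark that is common at distal regulatory elements of stem cells. The hmC-Seal method attaches a glucose with a biotin handle to 5-hydroxymethylcytosine and pulls the marked fragments down, whereas bisulfite treatment leaves both 5-methylcytosine and 5-hydroxymethylcytosine unconverted and cannot tell them apart.

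Sequence is shown first for promoters that hold a called summit, because the letters under the regions could be read only inside promoter windows. The promoter windows are 300 bases long, from 250 bases before a gene start to 50 after it, and come from RefSeq on GRCm38.p6. The octamer ATGCAAAT was searched on both strands, and so was ATGCNAAT, in which 1 base is free and which takes in every match of the octamer. Capitals mark the matches to ATGCNAAT, which read backwards and complemented where they lie on the other strand, and each sequence is given from 5′ to 3′ on the strand of the gene. A match describes the letters of the window and is neither a site nor a cause.

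The first set shows every window with a summit in all 4 lists, as the part of the called stretch that lies inside the window. These are the promoters of Plppr2, which encodes a phospholipid phosphatase-related protein (chr9:21936823-21936991, plus strand), of the histone H2A gene H2ac6 (chr13:23684026-23684172, minus strand), of the small GTPase gene Rras (chr7:45017692-45017981, plus strand), of the long non-coding RNA gene Gm40987 (chr13:65991067-65991246, minus strand) and of Gtpbp1, which encodes a GTP-binding protein (chr15:79690646-79690847, plus strand).
Plppr2: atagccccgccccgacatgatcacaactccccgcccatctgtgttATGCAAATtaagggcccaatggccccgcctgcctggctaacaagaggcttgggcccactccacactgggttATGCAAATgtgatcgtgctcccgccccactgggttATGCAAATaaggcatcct
H2ac6: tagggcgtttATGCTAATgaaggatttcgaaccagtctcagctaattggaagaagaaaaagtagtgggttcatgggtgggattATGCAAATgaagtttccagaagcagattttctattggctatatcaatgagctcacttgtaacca
Rras: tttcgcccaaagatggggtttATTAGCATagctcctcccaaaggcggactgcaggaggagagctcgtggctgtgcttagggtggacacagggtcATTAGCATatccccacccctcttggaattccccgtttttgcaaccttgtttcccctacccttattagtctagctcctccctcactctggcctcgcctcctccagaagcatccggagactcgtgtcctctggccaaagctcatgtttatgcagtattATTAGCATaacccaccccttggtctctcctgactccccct
Gm40987: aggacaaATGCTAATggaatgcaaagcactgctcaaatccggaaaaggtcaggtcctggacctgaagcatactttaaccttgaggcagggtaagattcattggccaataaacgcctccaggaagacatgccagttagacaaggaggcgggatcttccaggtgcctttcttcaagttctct
Gtpbp1: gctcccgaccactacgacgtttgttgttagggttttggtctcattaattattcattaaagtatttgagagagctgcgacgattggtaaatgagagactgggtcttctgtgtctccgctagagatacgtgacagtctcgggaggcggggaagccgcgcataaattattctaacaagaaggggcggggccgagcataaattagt
The Plppr2 stretch holds 3 octamers, and that of H2ac6 holds 1 octamer and 1 further match with a free base. The Rras stretch holds 3 matches with a free base and no octamer, the Gm40987 stretch 1, and the Gtpbp1 stretch none.

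The second set shows promoters called in only some of the lists, for contrast with the first. The window of Pipox, which encodes an enzyme that oxidises pipecolic acid (chr11:77894008-77894122, minus strand), held a summit in hmC-Seal library 1 and both bisulfite libraries. Those of Zfp428, a zinc finger gene (chr7:24506920-24507056, plus strand), of the cell cycle regulator E2f3 (chr13:29986098-29986291, minus strand) and of Srrm4, a neuronal splicing regulator (chr5:116591947-116592032, minus strand), held one in both hmC-Seal libraries and no bisulfite library.
Pipox: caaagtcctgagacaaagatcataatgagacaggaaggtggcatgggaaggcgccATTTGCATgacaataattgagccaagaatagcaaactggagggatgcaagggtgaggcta
Zfp428: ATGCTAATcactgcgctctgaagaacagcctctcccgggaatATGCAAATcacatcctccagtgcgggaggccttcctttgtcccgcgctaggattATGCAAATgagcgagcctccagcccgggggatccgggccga
E2f3: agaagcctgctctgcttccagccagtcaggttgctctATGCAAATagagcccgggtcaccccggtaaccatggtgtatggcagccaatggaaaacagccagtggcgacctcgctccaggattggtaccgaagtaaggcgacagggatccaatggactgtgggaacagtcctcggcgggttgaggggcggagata
Srrm4: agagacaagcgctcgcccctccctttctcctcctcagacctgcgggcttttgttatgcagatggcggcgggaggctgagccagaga
The stretch of Zfp428 holds 2 octamers and 1 further match, those of Pipox and E2f3 hold 1 octamer each, and that of Srrm4 holds no match. The stretch of Wwtr1, called in the same 3 libraries as that of Pipox, holds no match either.

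Over all 32619 promoter windows, 570 (1.75%) held the octamer and 1035 (3.17%) held ATGCNAAT. Among windows with a summit, ATGCNAAT stood in 37 of 76 (48.7%, 95% Wilson interval 37.8% to 59.7%) for hmC-Seal library 1 and in 13 of 52 (25%, 15.2% to 38.2%) for hmC-Seal library 2. It stood in 10 of 17 (58.8%, 36.0% to 78.4%) for bisulfite library 1 and in 9 of 15 (60.0%, 35.7% to 80.2%) for bisulfite library 2. In each of the 4 lists the share was above that of all windows, the intervals of the 4 libraries all overlapped, and hmC-Seal library 2 had the lowest share. The octamer itself stood in 30.3% and 17.3% of the windows of hmC-Seal libraries 1 and 2 and in 47.1% and 33.3% of those of bisulfite libraries 1 and 2. The median distance from the summit to the nearest match was 14 bp in hmC-Seal library 1, 20 bp in hmC-Seal library 2, 20 bp in bisulfite library 1 and 9 bp in bisulfite library 2. All such intervals cover counting error only, and regions of 1 library are not replicates of one another.

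One library stood apart from the other 3 and bears on most of what follows. The lists hold no read totals, so depth was estimated for each summit by solving its fold enrichment and −log10 p together for whole fragments, and the mean coverage by fragments came to 0.717 in hmC-Seal library 1, 0.156 in hmC-Seal library 2, 0.824 in bisulfite library 1 and 0.887 in bisulfite library 2. The shallow library, hmC-Seal library 2, has the longest list. Its median region rests on an estimated 5 fragments, against 17 in hmC-Seal library 1, 19 in bisulfite library 1 and 18 in bisulfite library 2. Regions of at least 10 fragments make up 14.5% of its list and 93.9%, 96.3% and 98.0% of the other 3, in the same order. Values without this library are therefore given beside the main comparisons.

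The number of regions was 3499 in hmC-Seal library 1, 11061 in hmC-Seal library 2, 2682 in bisulfite library 1 and 1947 in bisulfite library 2. Both hmC-Seal lists were longer than both bisulfite lists, with a ratio of geometric means of 2.72 (two-sided exact permutation test, p = 0.333, and a design of 2 against 2 cannot give a smaller p). The ratio was 1.53 without hmC-Seal library 2, 4.84 without hmC-Seal library 1, and 1.04 when only regions of at least 10 fragments were counted. Regions had a median width of 112, 99.0, 101 and 104 bp in hmC-Seal libraries 1 and 2 and bisulfite libraries 1 and 2, so that the preparations did not separate in width. In the same order the lists cover 470907, 1164412, 311052 and 243464 bp. The fold enrichment compares the summit with local IgG within each library, after a pseudocount of 1 is added to both. Its median was 7.29 and 4.32 in hmC-Seal libraries 1 and 2 and 6.00 and 6.28 in bisulfite libraries 1 and 2. The bisulfite medians lie between those of the hmC-Seal replicates. The estimated genome background was 0.156 in hmC-Seal library 2, against 0.58 in hmC-Seal library 1 and 0.637 and 0.631 in bisulfite libraries 1 and 2. The pseudocount therefore lowers folds most in hmC-Seal library 2, and its part in the low median there was not tested.

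Chromosome X held 3.80% and 5.58% of the regions of hmC-Seal libraries 1 and 2 and 5.63% and 4.62% of those of bisulfite libraries 1 and 2. Only 2 bins of 100 kb held 10 or more regions in any of the 4 lists. One, at the start of chromosome 9 (chr9:3000001-3100000), held 12 regions of hmC-Seal library 1, 42 of hmC-Seal library 2 and none of either bisulfite library. The other, on chromosome X (chrX:75600001-75700000), held 2 and 14 regions of the hmC-Seal libraries and again none of the bisulfite libraries. Both bins were left out of the choice of named sites.

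Most regions of both preparations lay far from gene starts. The median distance from the summit to the nearest annotated start was 23684 bp in hmC-Seal library 1, 32347 bp in hmC-Seal library 2, 33456 bp in bisulfite library 1 and 29369 bp in bisulfite library 2. Distances were shortest in hmC-Seal library 1, whereas hmC-Seal library 2 fell between the bisulfite libraries. The ratio of geometric means of hmC-Seal to bisulfite was 0.883 (two-sided exact permutation test, p = 0.667). It turned to 1.03 without hmC-Seal library 1 and was 0.756 without hmC-Seal library 2. Within 5 kb of a start lay 17.0% of the regions of hmC-Seal library 1 (95% Wilson interval 15.8% to 18.3%), 12.6% of hmC-Seal library 2 (12% to 13.2%), 12.3% of bisulfite library 1 (11.1% to 13.6%) and 13.2% of bisulfite library 2 (11.8% to 14.8%). The mean was 14.8% ± 3.12 (SD, n = 2) for hmC-Seal and 12.8% ± 0.633 (SD, n = 2) for bisulfite, a difference of 2.01 percentage points that is smaller than the spread between the hmC-Seal replicates (the same exact permutation test, p = 0.667). Without hmC-Seal library 1 it was -0.194 points, so its direction rests on that library when all gene starts are used. Without hmC-Seal library 2 it was 4.22 points. With protein-coding genes only it was 1.87 points, and both hmC-Seal shares lay above both bisulfite shares (two-sided exact permutation test, p = 0.333). In the closest class, up to 1 kb of any gene start, the preparations overlapped. It held 4.77% and 2.54% of regions in hmC-Seal libraries 1 and 2 and 2.05% and 3.03% in bisulfite libraries 1 and 2.

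**Figure D1:**
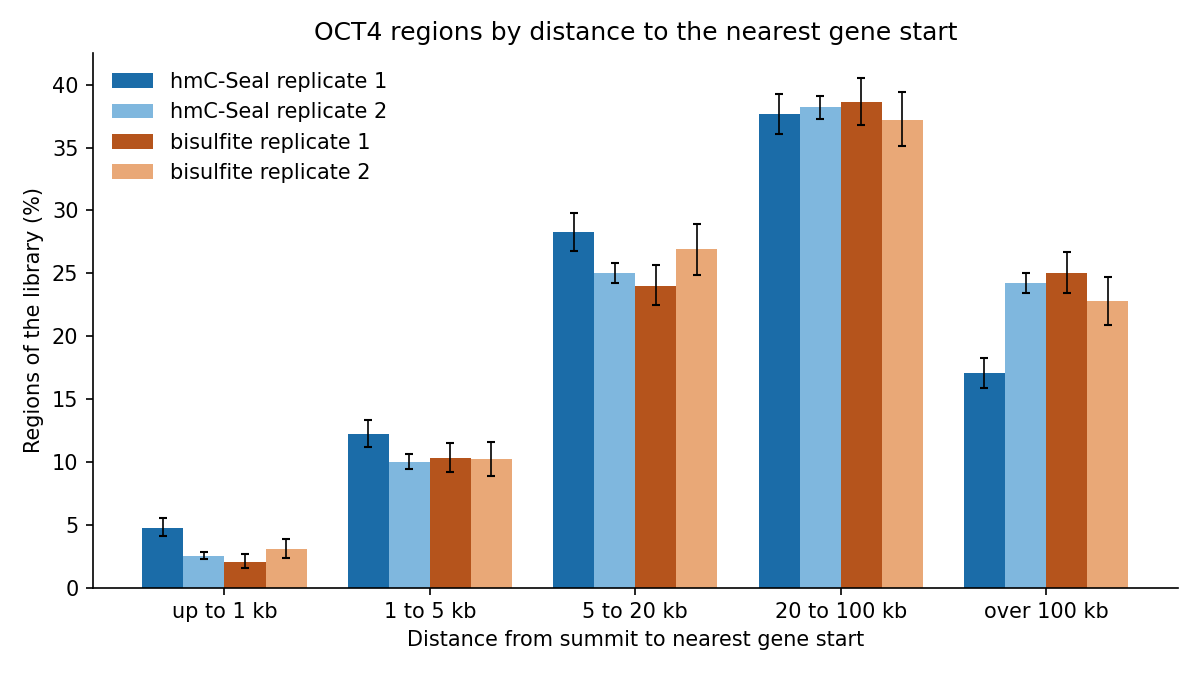
Share of the regions of each library (%, vertical axis) in 5 classes of distance from the summit to the nearest gene start (horizontal axis), with 95% Wilson intervals as error bars. hmC-Seal library 1 has the most regions up to 1 kb (4.77%) and the fewest over 100 kb (17.1%), and the other 3 libraries differ little from one another.

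Shares inside gene spans separated the preparations. Summits lay inside an annotated gene span in 45.8% (95% Wilson interval 44.1% to 47.4%) and 44.6% (43.6% to 45.5%) of the regions of hmC-Seal libraries 1 and 2, and in 38.4% (36.6% to 40.3%) and 40.3% (38.2% to 42.5%) of those of bisulfite libraries 1 and 2. The means were 45.2% ± 0.871 (SD, n = 2) and 39.4% ± 1.33 (SD, n = 2), so the difference of 5.79 points was larger than the spread within either preparation (two-sided exact permutation test, p = 0.333, again the floor of the design). Without hmC-Seal library 2 the difference was 6.40 points. Spans of protein-coding genes alone held 36.5% and 36.8% of hmC-Seal regions and 30.4% and 32.1% of bisulfite regions. Annotated spans cover about 47.2% of chromosomes 1 to 19 and X, measured to the last gene or region and with unmappable stretches included. The shares of all 4 libraries were below this rough reference, and the interval of hmC-Seal library 1 reached it. The annotation gives spans only, so that a summit inside a gene may lie in an exon or an intron. The type of the nearest gene hardly varied, since the nearest start was that of a protein-coding gene for 53.8% and 51.7% of hmC-Seal regions and for 51.2% and 51.5% of bisulfite regions. Stretches in hmC-Seal library 1 alone lay inside a span in 47.8% of cases and those in hmC-Seal library 2 alone in 44.7%, against 35.8% and 36.7% for stretches in bisulfite library 1 or 2 alone.

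Rank within a list was taken from −log10 q and given as a percentile, in which 100 is the region of highest −log10 q in that list. Rank and distance to genes varied little together. In hmC-Seal library 1 the top 25% of the list lay within 5 kb of a start in 17.0% of cases and the lowest 25% in 17.3%, and in bisulfite library 1 the shares were 12.5% and 12.1%. In hmC-Seal library 2 they were 12.4% and 14.0%, and its lowest 25% lay inside gene spans more often than its top 25%, in 48.2% against 44.2% of cases. Rank did go with recurrence between lists. Of the top 25% of hmC-Seal library 1, 57.6% was also called in bisulfite library 1 and 59.0% in bisulfite library 2, against 8.40% and 8.75% of its lowest 25%. Of the top 25% of bisulfite library 2, 65.9% was also in hmC-Seal library 1, and of its lowest 25% 38.3%. The decline was smaller in bisulfite library 1, from 43.4% to 30.5% in hmC-Seal library 1, and in hmC-Seal library 2 the share also in bisulfite library 1 fell from 12.3% to 1.23%.

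Overlap between lists, of at least 1 bp, was counted in both directions because the lists differ in length. Of the 3499 regions of hmC-Seal library 1, 942 (26.9%, 95% Wilson interval 25.5% to 28.4%) overlapped bisulfite library 1 and 1011 (28.9%, 27.4% to 30.4%) bisulfite library 2. Of the 11061 regions of hmC-Seal library 2, 642 (5.80%, 5.38% to 6.26%) and 617 (5.58%, 5.17% to 6.02%) did so. Seen from the other side, hmC-Seal libraries 1 and 2 held 35.2% and 23.9% of the regions of bisulfite library 1, and 51.9% and 31.6% of those of bisulfite library 2. Thus bisulfite library 2 shared as much with hmC-Seal library 1 (51.9%) as with the other bisulfite library (50.5%), and hmC-Seal library 1 shared nearly as much with each bisulfite library as with hmC-Seal library 2 (29.7%). The mean over the 4 pairs was 16.8% ± 12.9 (SD) of hmC-Seal regions and 35.7% ± 11.8 of bisulfite regions, against 19.6% and 43.6% between libraries of the same preparation. Without hmC-Seal library 2 the between-preparation means were 27.9% and 43.6%, and without hmC-Seal library 1 they were 5.69% and 27.8%. The names of the entries in all 4 lists carry the same IgG tag, no IgG library made by hmC-Seal is among the samples, and the sources do not say which IgG was used for the hmC-Seal lists. The lists may therefore share a control, within and between preparations alike, and overlaps and correlations are given here as descriptions. The part of a shared control in them was not tested.

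Overlapping regions of the 4 lists were merged into 15616 stretches. Of these, 9776 (62.6%) were held by hmC-Seal library 2 alone, 1736 by hmC-Seal library 1 alone, 1294 by bisulfite library 1 alone and 540 by bisulfite library 2 alone. A library of each preparation held 1539 stretches (9.86%), and all 4 lists held 380, which are called common sites below. Without hmC-Seal library 2, 658 stretches were held by the remaining 3 lists, and 104 common sites were left when only regions of at least 10 fragments were counted. Both hmC-Seal lists and no bisulfite list held 465 stretches, and both bisulfite lists and no hmC-Seal list held 266. Of the 984 stretches in both bisulfite libraries, 66.9% were in hmC-Seal library 1 and 44.7% in hmC-Seal library 2, and of the 1037 in both hmC-Seal libraries, 44.9% were in bisulfite library 1 and 46.9% in bisulfite library 2.

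**Figure D2:**
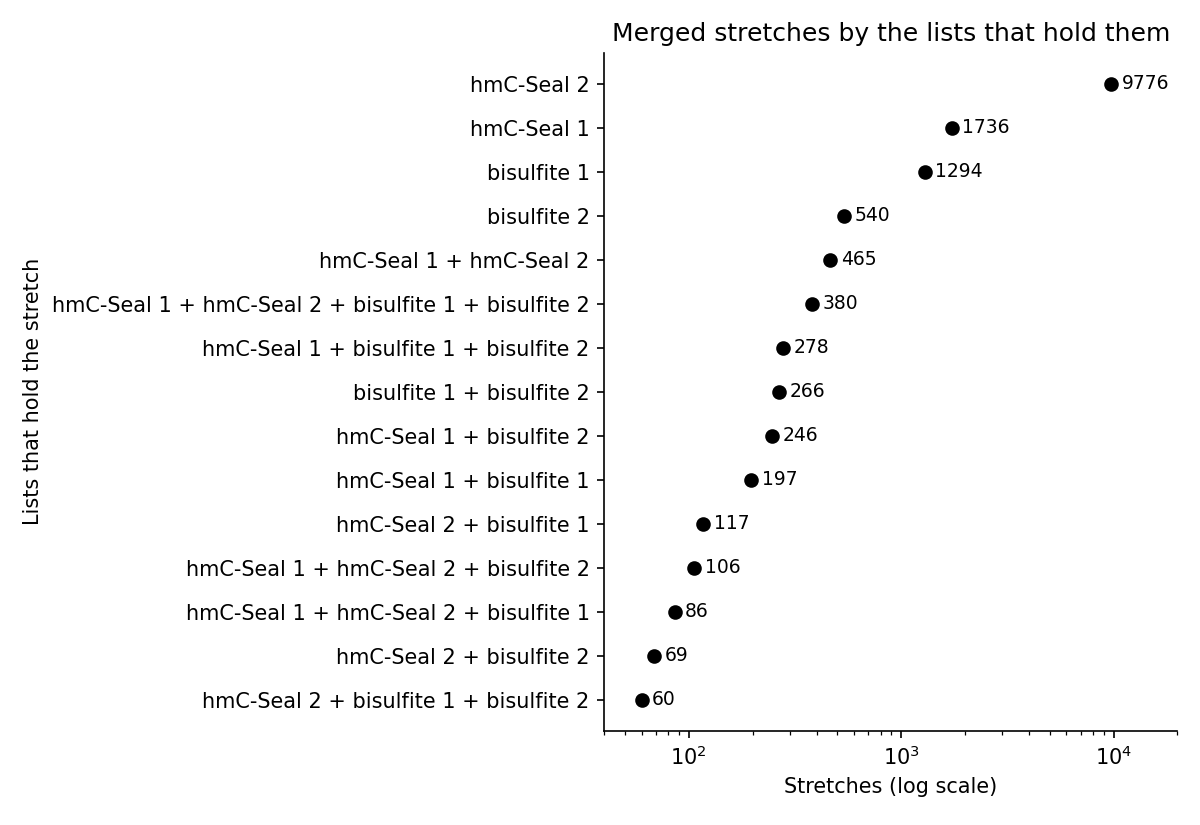
Number of merged stretches (horizontal axis, log scale) by the combination of hmC-Seal and bisulfite lists that hold them (vertical axis), one point for each combination. Stretches of hmC-Seal library 2 alone number 9776, and those held by all 4 lists number 380.

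Conventional lists held a larger share of the common sites than of the stretches of 1 preparation. Common sites were wider, at a median of 216 bp against 116 and 106 bp for those in both hmC-Seal or both bisulfite libraries only. They also ranked higher than other regions, as given below, and the part of width and rank in this contrast was not tested. A conventional list also held 128 of the 380 common sites (33.7%, 95% Wilson interval 29.1% to 38.6%), and 46 of the 278 stretches in hmC-Seal library 1 and both bisulfite libraries (16.5%, 12.6% to 21.4%). By contrast, it held 3 of the 465 stretches in both hmC-Seal libraries only (0.645%, 0.22% to 1.88%) and 2 of the 266 in both bisulfite libraries only (0.752%, 0.206% to 2.70%). Of the stretches of a single list, a conventional list held 20 of 1736 (1.15%, 0.747% to 1.77%) for hmC-Seal library 1 alone, 6 of 9776 (0.0614%) for hmC-Seal library 2 alone, 1 of 1294 (0.0773%, 0.0136% to 0.436%) for bisulfite library 1 alone and 0 of 540 for bisulfite library 2 alone. The share of hmC-Seal library 1 was the highest of these 4.

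The common sites were chosen by overlap of regions, whose median widths were 99.0 to 112 bp in the 4 lists. That choice itself limits how far apart the summits can lie, for pairs within and between preparations alike. The median distance between summits was 10.0 bp for hmC-Seal library 1 and bisulfite library 1, 8.00 bp for hmC-Seal library 1 and bisulfite library 2, 15.0 bp for hmC-Seal library 2 and bisulfite library 1, and 14.0 bp for hmC-Seal library 2 and bisulfite library 2. Between replicates it was 11.5 bp for hmC-Seal and 9 bp for bisulfite. The mean over the 4 pairs between preparations was 11.8 bp ± 3.30 (SD), and over the 2 pairs within a preparation 10.2 bp ± 1.77 (SD), a difference smaller than either spread. The larger distances belong to pairs with hmC-Seal library 2. Summits were within 10 bp of each other at 53.4% and 56.6% of sites for hmC-Seal library 1 with bisulfite libraries 1 and 2, and at 38.9% and 41.3% for hmC-Seal library 2 with the same libraries. With only regions of at least 10 fragments the mean between preparations was 5.62 bp, and with lists of equal length it was 7.25 bp. Without hmC-Seal library 2 it was 10.0 bp.

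**Figure D3:**
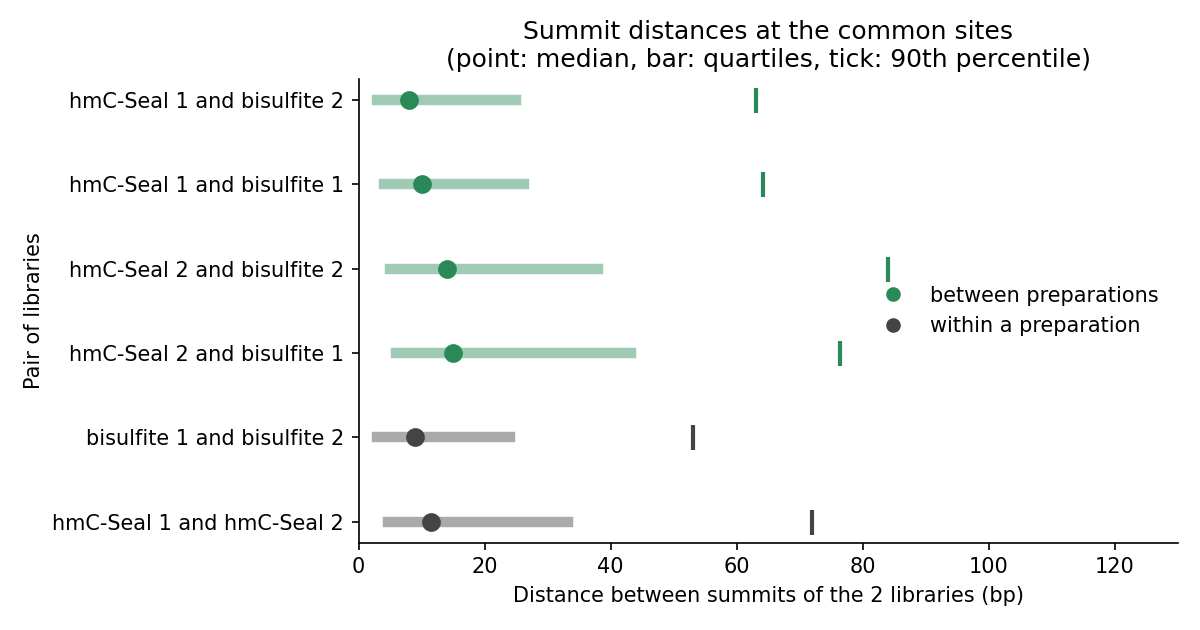
Distance in bp between the summits of each pair of libraries (horizontal axis) at the 380 common sites, by pair (vertical axis), with the median as a point, the quartiles as a bar and the 90th percentile as a tick. Pairs between preparations have medians from 8.00 to 15.0 bp, and the 2 pairs within a preparation have 9 and 11.5 bp. The sites were chosen by overlap of regions, which limits these distances.

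All 4 summits of a site spanned a median of 30.0 bp and at most 50 bp at 248 of the 380 sites (65.3%, 95% Wilson interval 60.3% to 69.9%). The span was smaller at sites of better rank. Among the 192 sites whose worst percentile was at or above the median of the common sites it was 15.0 bp, and among the other 188 it was 47.5 bp. At the site nearest to Gm41259, a long non-coding RNA gene, the 4 summits fell on the same base.

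Rank also recurred between preparations. Spearman's rho of −log10 q over the 380 common sites was 0.628 for hmC-Seal library 1 and bisulfite library 1, 0.694 for hmC-Seal library 1 and bisulfite library 2, 0.464 for hmC-Seal library 2 and bisulfite library 1, and 0.475 for hmC-Seal library 2 and bisulfite library 2. It was 0.742 between the bisulfite replicates and 0.451 between the hmC-Seal replicates. The hmC-Seal replicates thus ranked these sites less alike than hmC-Seal library 1 and either bisulfite library did. The mean of the 4 pairs, 0.565 ± 0.114 (SD), was within the spread of the pairs within a preparation, 0.596 ± 0.205 (SD). Without hmC-Seal library 2 the mean between preparations was 0.625. These correlations are across sites, which are not independent replicates, and the points share the choice of sites and, by the tags, possibly the IgG control.

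Common sites stood high in every list. Their median percentile was 87.9 in hmC-Seal library 1, 80.7 in hmC-Seal library 2, 74.5 in bisulfite library 1 and 75.8 in bisulfite library 2, and that of the other regions of these lists was 45.7, 44.7, 46.2 and 44.2. At 135 of the 380 sites (35.5%, 95% Wilson interval 30.9% to 40.5%) both hmC-Seal percentiles lay above both bisulfite percentiles. The opposite held at 28 sites (7.37%, 5.15% to 10.4%), and at the remaining 217 the preparations overlapped. A percentile counts the regions below a site, so it also reflects how many weak regions a list holds. The part of this in the order was not tested, because settings with shorter lists also hold fewer common sites. With the same number of regions taken from each list, hmC-Seal was higher at 7 of 168 sites (4.17%) and bisulfite at 35 (20.8%), and with regions of at least 10 fragments hmC-Seal was higher at 6 of 104 (5.77%) and bisulfite at 16 (15.4%). The direction is therefore not a stable property of the common sites. Without hmC-Seal library 2 the shares were 64.1% and 14.9%, without hmC-Seal library 1 they were 45.6% and 32.8%, without bisulfite library 1 they were 48.8% and 12.8%, and without bisulfite library 2 they were 52.2% and 12.8%, each over 3 lists in place of 4.

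**Figure D4:**
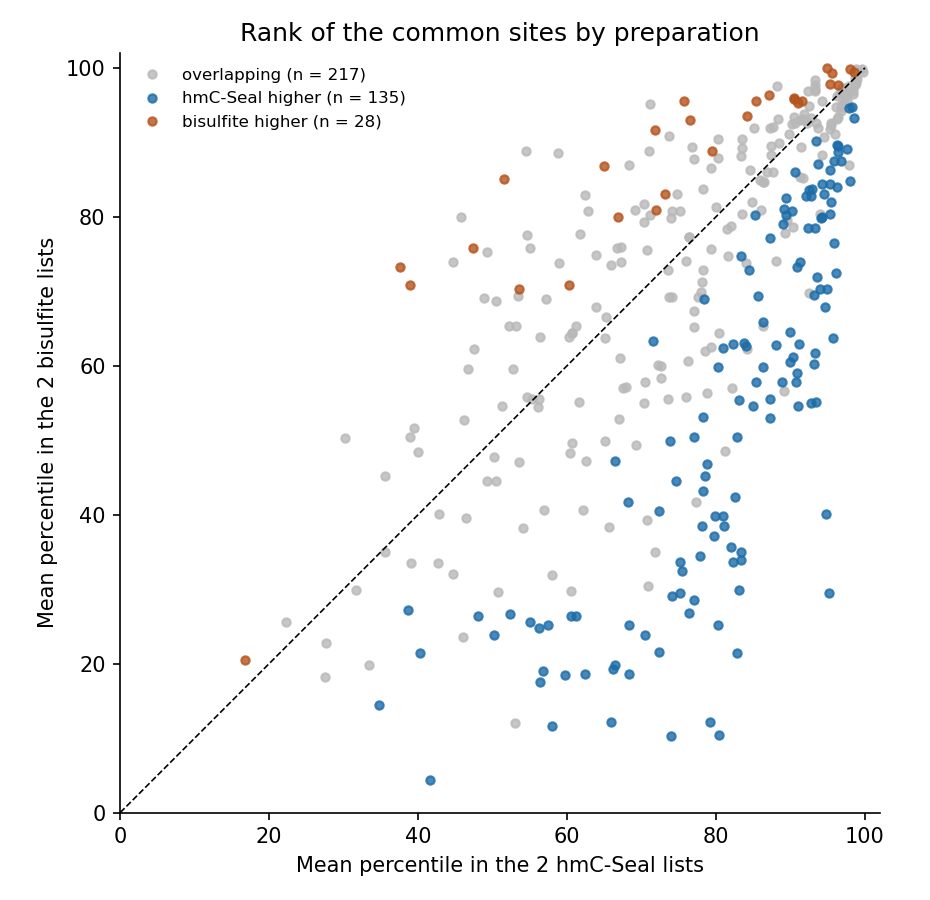
Mean percentile of each of the 380 common sites in both hmC-Seal lists (horizontal axis) against that in both bisulfite lists (vertical axis), where 100 is the highest −log10 q of a list and the dashed line marks equal values. Blue points (135) are higher in both hmC-Seal libraries and lie mostly at the right, orange points (28) are higher in both bisulfite libraries, and grey points (217) overlap.

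Of the 8 sites that ranked best in all 4 lists, 5 lie outside gene spans. Here and in the other sets of named sites, a site outside gene spans is named by the gene with the nearest start, however far. The first (chr15:5895728-5896081), 148726 bp from the start of Gm41259, ranked 3 and 56 in hmC-Seal libraries 1 and 2 and 19 and 6 in bisulfite libraries 1 and 2, with fold enrichments of 22.0, 19.5, 12.1 and 13.0. The site inside Crlf2, which encodes a subunit of the receptor for thymic stromal lymphopoietin, ranked 1, 77, 5 and 1 in the same order. Near 4930505A04Rik (chr11:30491973-30492213) the fold enrichment was 24.8 and 14.1 in hmC-Seal and 21.7 and 23.5 in bisulfite libraries 1 and 2. Here the bisulfite libraries ranked the site at least as high as the hmC-Seal libraries did, with percentiles of 99.3 and 99.7 against 99.1 and 98.1.

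Lats2 encodes a kinase of the Hippo pathway. A site inside its span (chr14:57732718-57733051), 1622 bp from the start, had a fold enrichment of 28.3 and 14.7 in hmC-Seal libraries 1 and 2 and 17.6 and 18.1 in bisulfite libraries 1 and 2, and both conventional lists held it too. The site 22104 bp from the start of Tmem64, a membrane protein gene (chr4:15243450-15243887), had 31.5, 14.6, 16.8 and 20.3 in the same order and was in no conventional list. A site inside Gm33176 and sites 1885 bp from Gm14444 and 69609 bp from Gm38823 complete the 8 best. Their worst percentiles were between 96.9 and 98.0.

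Of the sites ranked higher in hmC-Seal, the 8 with the largest difference were named from the full lists, where percentiles also reflect list length. The site inside Trdn, which encodes triadin of the sarcoplasmic reticulum (chr10:33375589-33375995), had percentiles of 81.0 and 79.8 in hmC-Seal libraries 1 and 2 and of 3.41 and 17.3 in bisulfite libraries 1 and 2, with fold enrichments of 7.94, 6.49, 3.68 and 4.60. Both conventional lists held this site. The site inside Zfp521, a zinc finger gene with a role in neural differentiation (chr18:13712607-13712884), had fold enrichments of 15.9 and 10.2 in hmC-Seal and 5.23 and 6.55 in bisulfite libraries. Inside Cltc, the gene of the clathrin heavy chain (chr11:86701251-86701427), they were 8.16 and 5.39 against 3.92 and 3.98. The site 7961 bp from Polr2m, which encodes a protein bound to RNA polymerase II (chr9:71493891-71494016), had 8.32 and 8.65 against 4.39 and 4.97. At each of these 4 sites both hmC-Seal folds were above both bisulfite folds. Each fold is relative to its own library's background, with the pseudocount of 1 included.

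The others lay outside gene spans. Their nearest starts were those of Gm30419 (33474 bp away), Plekhb2 (382838 bp), Gm13458 (79720 bp) and Gm40746 (103260 bp). Folds overlapped at Plekhb2, with 14.7 and 5.91 against 4.36 and 6.19, and at Gm13458, with 12.4 and 6.05 against 5.33 and 6.28. The site near Gm40746 (chr10:96077525-96077882) had high percentiles in hmC-Seal libraries 1 and 2, 91.6 and 98.7, at fold enrichments of only 1.60 and 2.32, and 24.6 and 34.3 in bisulfite libraries 1 and 2 at 1.30 and 1.29. A rank by −log10 q and a rank by fold are thus not the same at such a site.

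Sites ranked higher in bisulfite were fewer with the full lists, 28 against 135, but more with lists of equal length, 35 against 7, and with at least 10 fragments, 16 against 6. The site inside Ap3b2, which encodes a neuronal subunit of an adaptor complex (chr7:81480935-81481170), had percentiles of 18.1 and 57 in hmC-Seal libraries 1 and 2 and 74.5 and 72.0 in bisulfite libraries 1 and 2. Its fold enrichments were 4.92 and 5.19 against 8.61 and 8.84. At Gm36038, a long non-coding RNA gene (chr2:172577314-172577633), a site 329 bp from the start had 8.19 and 8.44 in hmC-Seal and 15.9 and 12.6 in bisulfite libraries. On chromosome X, 30067 bp from the pseudogene Gm4993 (chrX:120987490-120987643), they were 5.76 and 6.05 against 10.9 and 9.75. At these 3 sites the folds were apart in the same direction as the ranks, with bisulfite higher. This did not hold for the site 9882 bp from Gm51883. There hmC-Seal library 1 had the highest fold, 8.43, against 5.32 and 6.17 in bisulfite libraries 1 and 2. Nor did it hold for the site 830181 bp from Gm41226, with 8.69 and 5.48 against 13.7 and 7.36. The remaining 3 lay 709404 bp from Gm46835, 30641 bp from Gm40661 and inside Gm8541. They also had both bisulfite folds above both hmC-Seal folds, which makes 6 of 8 sites chosen for their rank difference.

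Among the 135 sites higher in hmC-Seal, 63 (46.7%, 95% Wilson interval 38.5% to 55.1%) lay inside a gene span, and among the 28 higher in bisulfite, 10 did (35.7%, 20.7% to 54.2%). The difference was not tested, and the groups rest on the rank direction, which turned with other list lengths. A conventional list held 34.1% of the former and 21.4% of the latter, with intervals of 26.6% to 42.4% and 10.2% to 39.5%.

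Some of the best ranked regions of hmC-Seal had no bisulfite counterpart. Inside Slc14a2, a urea transporter gene (chr18:78198238-78198409), a region ranked 2 in hmC-Seal library 1 and 3 in hmC-Seal library 2, with fold enrichments of 33.8 and 88.3. At 175603 bp before the start of Rbfox1, a neuronal splicing regulator (chr16:5709148-5709251), one ranked 6 and 14, with 37.0 and 56.2. Inside Ttc21b, which encodes a protein of intraflagellar transport (chr2:66189186-66189479), one had 23.3 and 44.1. Near Tmcc3 (chr10:94592431-94592544) the fold was 26.2 and 50.2, and inside the long non-coding RNA gene G630055G22Rik (chr18:48010408-48010530) it was 32.9 and 76.1. The fold was higher in the shallow hmC-Seal library 2 than in hmC-Seal library 1 at these 5 sites, whereas at the 8 best common sites it was higher in hmC-Seal library 2 only near Gm38823. Summits of the 2 replicates lay at most 5 bp apart at these 5 sites, and no conventional list held any of them.

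Inside Gm30762 the fold enrichment was 45.2 in hmC-Seal library 1 and 35.5 in hmC-Seal library 2. Near Abcb11, the gene of the bile salt export pump (chr2:69355546-69355637), a region ranked 9 and 61 with a fold of only 3.14 and 4.11, and inside 2210408I21Rik one ranked 4 in both lists with 3.48 and 10.2. High rank in the hmC-Seal lists therefore came with either high or low fold.

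Of the regions in both bisulfite libraries and neither hmC-Seal library, the best ranked lay 104749 bp from Ids, the gene of a lysosomal sulfatase (chrX:70260289-70260389), with ranks of 21 and 13 and fold enrichments of 8.45 and 7.20 in bisulfite libraries 1 and 2. Inside Rbl1, a gene of the retinoblastoma family (chr2:157190694-157190795), the folds were 7.03 and 6.37. At 9573 bp before the start of Plcb1, which encodes a phospholipase C (chr2:134776547-134776640), they were 3.76 and 4.05. At 126592 bp from the start of Tox3, an HMG-box gene (chr8:90221615-90221705), they were 3.22 and 4.59. The highest fold among the 8 named sites was 10.7, in bisulfite library 1 at 221558 bp from 4930521E06Rik, where bisulfite library 2 had 5.14. Among those of hmC-Seal it was 45.2 in hmC-Seal library 1 and 88.3 in the shallow hmC-Seal library 2. The other 3 were inside Gm40847 and Rdh18-ps and 86049 bp from Gm31331. None of the 8 was in a conventional list, and the summits of the replicates lay at most 4 bp apart.

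A start of a protein-coding gene lay within 1 kb of 9 of the 380 common sites (2.37%), among them Crlf2. Within 1 kb of a start of any gene, a wider set, lay 4.77% and 2.54% of all regions in hmC-Seal libraries 1 and 2. In bisulfite libraries 1 and 2 it was 2.05% and 3.03%. The share of all regions at protein-coding starts alone is not given here. Etv5, an ETS factor gene expressed in stem cells, had a site 287 bp before its start (chr16:22439738-22439956), with fold enrichments of 34.4 and 12.1 in hmC-Seal libraries 1 and 2 and 14.8 and 18.5 in bisulfite libraries 1 and 2. At Plppr2, whose stretch with 3 octamers was printed above, the folds were 21.9 and 9.44 in hmC-Seal and 11.3 and 12.2 in bisulfite libraries. At H2ac6, with 1 octamer, they were 31.4 and 10.4 against 11.9 and 12. At these 3 promoters hmC-Seal library 1 had the highest fold and hmC-Seal library 2 the lowest, so the folds of the preparations overlapped. The pseudocount lowers folds most in hmC-Seal library 2, and its part in this order and overlap was not tested. By percentile H2ac6 was higher in both hmC-Seal libraries, with 99.4 and 95.8 against 87.6 and 90.6.

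Of the remaining promoters, 2 showed other orders. The part of the Gtpbp1 site inside the promoter window held no match to the motif, and the rest could not be read. At this site bisulfite library 1 had the highest fold, 20.4, beside 15.9 and 7.87 in hmC-Seal libraries 1 and 2 and 10.5 in bisulfite library 2. At Cyb5r1, a cytochrome b5 reductase gene (chr1:134405090-134405202), bisulfite library 2 had 14.6, bisulfite library 1 12.9, and hmC-Seal libraries 1 and 2 had 12.4 and 6.92. Its percentiles were likewise higher in bisulfite, 91.5 and 95.7 against 83.1 and 85.2. The other 4 had the same order as the first 3. At Rras the folds were 13.9 and 5.51 in hmC-Seal and 6.68 and 9.75 in bisulfite libraries, with 157 bp between the outermost summits. Lrpap1, which encodes a chaperone of lipoprotein receptors, had 13.9 and 7.08 against 9.58 and 10.6, and Tnks1bp1, which encodes a tankyrase-binding protein, had 21.9 and 5.51 against 8.61 and 8.68. At Crlf2 the folds were 59.5 and 19.9 against 34.6 and 38.6. No promoter of the 9 had both hmC-Seal folds above both bisulfite folds.

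Genes were called near a site when a summit lay in their span or within 5 kb of either end. Of 49554 annotated genes, 2265 (4.57%) and 5714 (11.5%) were near a site of hmC-Seal libraries 1 and 2, and 1496 (3.02%) and 1149 (2.32%) near one of bisulfite libraries 1 and 2. Of the protein-coding genes alone, the shares were 6.77%, 17.1%, 4.45% and 3.47% in the same order. Both hmC-Seal libraries had a site near 1087 genes (2.19%), both bisulfite libraries near 670 (1.35%), and all 4 libraries near 361 (0.728%). These 361 are 33.2% of the hmC-Seal genes and 53.9% of the bisulfite genes. With lists of equal length, 349 genes were near sites of both hmC-Seal libraries, 548 near those of both bisulfite libraries and 160 near all 4, so the larger hmC-Seal count goes with its longer lists. Without hmC-Seal library 2, hmC-Seal library 1 and both bisulfite libraries shared 495 genes.

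The 7 gene lists hold 147 genes of the annotation. Of these, 30 (20.4%) and 34 (23.1%) were near a site of hmC-Seal libraries 1 and 2, and 12 (8.16%) and 15 (10.2%) near one of bisulfite libraries 1 and 2. Both hmC-Seal libraries had a site near 15 (10.2%, against 2.19% of all genes and 3.64% of protein-coding genes), both bisulfite libraries near 10 (6.80%, against 1.35% and 2.07%), and all 4 near 6 (4.08%, against 0.728% and 1.16%). The lists were drawn up for genes of stem cells with earlier results known, and genes differ in length, so nothing was tested from these shares.

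**Figure D5:**
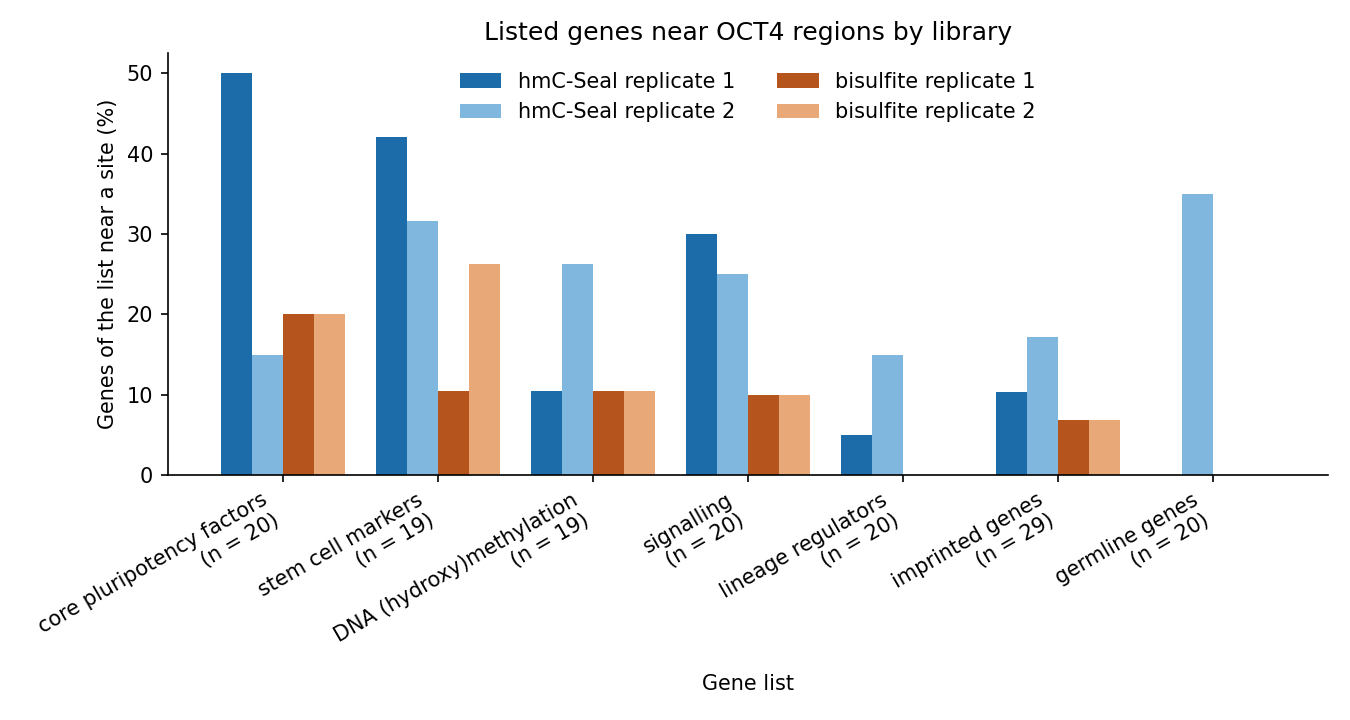
Share of each gene list near a site (%, vertical axis) by list (horizontal axis, with the number of genes in the annotation) and library (bars). hmC-Seal library 1 reaches 50.0% of the core pluripotency factors, and germline genes have bars only for hmC-Seal library 2 (35.0%).

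Core pluripotency factors were near sites most often in hmC-Seal library 1, with 10 of 20, against 3 in hmC-Seal library 2 and 4 in each bisulfite library. As shares, 50.0%, 20% and 20% in hmC-Seal library 1 and bisulfite libraries 1 and 2 were above the 6.77%, 4.45% and 3.47% of protein-coding genes, and 15.0% in hmC-Seal library 2 was below its 17.1%. Pou5f1 itself was near a site of hmC-Seal library 2 (percentile 80.3) and bisulfite library 2 (94.5) and of neither hmC-Seal library 1 nor bisulfite library 1, and conventional library 2 also called a region there (98.8). Sox2, the partner of OCT4, was near a site in all 4 lists, with percentiles of 96.1 and 64.8 in hmC-Seal libraries 1 and 2 and 62.1 and 66.6 in bisulfite libraries 1 and 2. Tfcp2l1, a factor of naive pluripotency, had a site about 2339 bp from its start (chr1:118625483-118625680 in hmC-Seal library 1). Its fold enrichment was 13.4 in hmC-Seal library 1 and 5.80 and 8.03 in bisulfite libraries 1 and 2, and hmC-Seal library 2 did not call it. The same 3 libraries called the site near Klf2, a Krüppel-like factor of the naive state, at percentiles of 12.4 in hmC-Seal library 1 and 11.7 and 43.9 in bisulfite libraries 1 and 2. Mycn, a proto-oncogene of the Myc family, was near a site of both hmC-Seal libraries, but the regions were different ones, resting on 15 fragments in hmC-Seal library 1 and on 3 in hmC-Seal library 2. Tbx3, a T-box factor, was near a site in replicate 1 of both preparations, with 5.36 in hmC-Seal and 5.52 in bisulfite. Stat3, which encodes a transcription factor downstream of leukaemia inhibitory factor, was near a site of hmC-Seal library 1 alone.

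Stem cell markers were near sites in 8 and 6 of 19 cases in hmC-Seal libraries 1 and 2 and in 2 and 5 in bisulfite libraries 1 and 2. These are 42.1%, 31.6%, 10.5% and 26.3%, against 6.77%, 17.1%, 4.45% and 3.47% of protein-coding genes. Dppa3, which guards methylation marks in the early embryo, had a site in all 4 lists (chr6:122624610-122624739 in hmC-Seal library 1), with fold enrichments of 14.7 and 7.87 in hmC-Seal and 13.2 and 11.5 in bisulfite libraries 1 and 2. Its percentiles, 92.8, 88.1, 94.0 and 92.7, differ by less than 6 points over the 4 lists. Jarid2, a cofactor of the Polycomb complex, had a site in both hmC-Seal libraries (chr13:44751820-44752005 in hmC-Seal library 1), with 10.6 and 4.72, and bisulfite library 2 called another region of the gene. Outside the 5 kb window, a common site lay 25054 bp before the start of Jarid2 (chr13:44705320-44705856), and both conventional lists held it. Its folds were 21.5 and 7.87 in hmC-Seal and 14.0 and 16.1 in bisulfite libraries 1 and 2. Mybl2, a regulator of the cell cycle, was near a site of both bisulfite libraries, with 10.9 and 7.64, and hmC-Seal library 1 called another region, before the gene, with 11.4. Alpl, the gene of alkaline phosphatase, had different regions in the hmC-Seal replicates, with folds of 3.69 and 3.46. Utf1, a chromatin-associated factor of stem cells, was called in 3 lists, with percentiles of 76.7 and 89.5 in hmC-Seal libraries 1 and 2 and 66.6 in bisulfite library 2.

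Genes that write, read or remove cytosine methylation were near sites in 2 and 5 of 19 cases in hmC-Seal libraries 1 and 2 and in 2 in each bisulfite library. With so few genes the shares of 10.5%, 26.3%, 10.5% and 10.5% stand beside 6.77%, 17.1%, 4.45% and 3.47% of protein-coding genes. The same 2 genes, Uhrf2 and Tet2, were near a site in all 4. Tet2, which encodes an enzyme that makes 5-hydroxymethylcytosine, had a site inside its span about 19597 bp from a start (chr3:133524641-133525114 in hmC-Seal library 1). The fold enrichment there was 14.3 and 3.94 in hmC-Seal libraries 1 and 2 and 7.07 and 8.68 in bisulfite libraries 1 and 2. At Uhrf2, a relative of the maintenance factor Uhrf1 (chr19:30029064-30029398 in hmC-Seal library 1), it was 12.4 and 4.32 in hmC-Seal and 9.11 and 8.03 in bisulfite libraries. At both genes hmC-Seal library 1 had the highest value and hmC-Seal library 2, with 4 fragments at each, the lowest. Uhrf1, Tdg and Mbd2 were near sites of hmC-Seal library 2 alone, on 3 or 4 fragments each.

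Signalling genes were near sites in 6 and 5 of 20 cases in hmC-Seal libraries 1 and 2 and in 2 in each bisulfite library. The shares were 30.0%, 25%, 10.0% and 10.0%, where protein-coding genes had 6.77%, 17.1%, 4.45% and 3.47%. Lifr, the receptor of leukaemia inhibitory factor, had a site in all 4 lists (chr15:7115806-7115940 in hmC-Seal library 1), with fold enrichments of 17.5 and 9.51 in hmC-Seal and 8.64 and 8.03 in bisulfite libraries 1 and 2. Both hmC-Seal percentiles, 94.7 and 94.5, lay above both bisulfite percentiles, 69.2 and 66.6. Id3, an inhibitor of basic helix-loop-helix factors, was near a site of hmC-Seal library 1, with 12.5, and of both bisulfite libraries, with 9.34 and 7.38. Fgf5, a growth factor gene that is switched on as cells leave the naive state, was near the same site of both hmC-Seal libraries, with 7.29 and 7.78, and of neither bisulfite library. Il6st, the receptor chain through which leukaemia inhibitory factor signals, and Nodal, a ligand of the TGF-beta family, were near different regions in the hmC-Seal replicates.

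Lineage regulators, which are mostly silent in stem cells, were near no bisulfite site and near 1 and 3 of 20 in hmC-Seal libraries 1 and 2. The shares of 5.00% and 15.0% in hmC-Seal stand beside 6.77% and 17.1% of protein-coding genes, and the 0 in each bisulfite library beside 4.45% and 3.47%. Pax3, a factor of the neural crest, had the only site in both, with fold enrichments of 8.19 and 3.94. Imprinted genes were near sites in 3 and 5 of 29 cases in hmC-Seal libraries 1 and 2 and in 2 in each bisulfite library. The shares, 10.3%, 17.2%, 6.90% and 6.90%, were within 4 points of those of all protein-coding genes. Grb10, an imprinted adaptor of insulin signalling, had a site in all 4 lists (chr11:11941353-11941646 in hmC-Seal library 1), with 8.83 and 7.75 in hmC-Seal and 10.5 and 6.72 in bisulfite libraries 1 and 2, so that the preparations overlapped. Usp29, a paternally expressed gene, was near different regions in the hmC-Seal replicates. Slc38a4, an amino acid transporter gene, was near a site of hmC-Seal library 1, with 9.85, and of bisulfite library 2, with 7.59.

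Of the 20 germline genes, many of which are held silent by promoter methylation in other cells, 7 were near a site of hmC-Seal library 2 and none was near a site of the other 3 libraries. The share in hmC-Seal library 2 was 35.0%, against 17.1% of all protein-coding genes, and in the other 3 that share was at most 6.77%. The regions near Sycp3, Tex101 and Brdt rest on 4, 3 and 3 fragments, and those near Stk31, Slc25a31 and Asz1 on 8, 8 and 9. Only the region inside Sycp1, a gene of the synaptonemal complex, rests on more, with 49 fragments at a fold enrichment of 3.51. The values of this list are those of 1 shallow library.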

How the data were processed

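OCT4 regions of mouse embryonic stem cells, from CUT&RUN, were read from the peak lists of 2 hmC-Seal and 2 bisulfite libraries, with 2 conventional libraries for description, grouped by the sample titles. The authors trimmed reads with fastp 0.19.4, aligned them to GRCm38 with Bowtie2 2.4.1, within Bismark 0.22.3 for the hmC-Seal and bisulfite libraries, kept short fragments with deepTools 3.1.3, and called peaks in each library against IgG with MACS 2. The deposited fold enrichment is a ratio of the summit pileup to the local IgG background, with the MACS 2 pseudocount of 1 added to both. The deposited −log10 p and its −log10 q were given by MACS 2 for the summit. The lists were not normalized to one another.

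Entries with the same chromosome, start and end were joined into 1 region with the summit of highest −log10 q. Gene spans came from the RefSeq table of GRCm38.p6 and starts from its promoter table, or else from the span with the strand of GENCODE. Intervals are 95% Wilson intervals. Library values were compared by two-sided exact permutation tests over 4 libraries, with numbers and distances on the log10 scale, and overlaps, summit distances and ranks were described without a test. Fragments and coverage were estimated by solving the Poisson formula of MACS 2 for whole fragments within 0.02. This assigned 99.7% and 99.9% of regions in hmC-Seal libraries 1 and 2 and 99.7% and 99.6% in bisulfite libraries 1 and 2. The median region rested on 5 to 19 fragments, which limits the precision of each summit.

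The members and gene lists were chosen with earlier results of these data known. Named sites were the 8 common sites with the best worst percentile, the 8 with the largest mean percentile difference in each direction among sites whose percentiles did not overlap, the 8 best ranked stretches of both libraries of 1 preparation and neither of the other, listed genes near a site in both libraries of a preparation, and protein-coding starts within 1 kb of a common site, up to 10. Promoters whose sequences are printed, and other genes of the lists and of the promoter windows, were picked after their values were seen. The alternatives were every summit as an entry, a −log10 q of at least 3, equal list length, no 100 kb bins with 10 or more regions, at least 10 fragments, leaving out each library, the replicate block, protein-coding genes only, other windows and an overlap of 50% of the shorter region. The IgG libraries were not used here, and regions off chromosomes 1 to 19 and X were left out. Values were computed with pandas 2.3.3, scipy 1.17.1 and numpy 2.4.6 in Python 3.11.15, and figures drawn with matplotlib 3.10.9.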

Additional observations from a re-analysis of the deposited data

How the results depend on the processing

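Of 157 values of the results under other settings, 120 stayed the same, 31 moved and 6 turned. The 4 tested values were judged by direction alone, however far they moved, and the others by the spread of the libraries, the interval or 1.5 times the main count. No p could reach 0.05 with 2 libraries against 2, so none of the tests says anything about stability. The cause of the changes was not tested, beyond what each setting removes by its own construction.

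The difference in the share within 5 kb of a gene start turned to -0.194 points, and the ratio of median distances to 1.03, without hmC-Seal library 1. Leaving out 1 library gave differences from -0.194 to 4.22 points and ratios from 0.756 to 1.03. The difference in the share inside gene spans, from 4.85 to 6.73 points, and the ratio of numbers of regions, from 1.53 to 4.84, kept their direction in all of the leave-one-out settings, and in every other setting run. With at least 10 fragments the ratio of numbers was 1.04, and hmC-Seal library 2, with 1609 regions, fell below bisulfite libraries 1 and 2, with 2583 and 1908, so the groups no longer separated.

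The order of the ranks at common sites was the least stable result. hmC-Seal was higher at 20.1% of common sites and bisulfite at 12.3% with a −log10 q of at least 3, and the order turned with equal list length (4.17% and 20.8%) and with at least 10 fragments (5.77% and 15.4%). Leaving out 1 library gave 45.6% to 64.1% for hmC-Seal and 12.8% to 32.8% for bisulfite.

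The median summit distance between preparations was 7.25 bp with equal list length, 5.62 bp with at least 10 fragments and 10.0 to 13.5 bp without 1 library. Common sites, a count added after seeing the data, numbered 168, 104 and 439 to 658 in these settings. The overlap shares, from 5.69% to 27.9% of hmC-Seal regions and from 27.8% to 43.6% of bisulfite regions without 1 library, and the rank correlation, from 0.482 to 0.625, moved by no more than 1 SD of the pairs.

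Genes near sites of both hmC-Seal libraries numbered 349 with equal list length and 305 with at least 10 fragments, against 548 and 653 for bisulfite, so the order of the preparations turned from 1087 against 670. Each count was judged by itself, and this turn is not among the 6. Genes near sites of all 4 libraries numbered 160 and 109. With 20 kb around the span the counts were 2230 for hmC-Seal, 1358 for bisulfite and 709 for both, and with 5 kb around the start only they were 167, 154 and 60. A single library took the place of both in the leave-one-out counts, which ran from 1087 to 5714 for hmC-Seal, from 670 to 1496 for bisulfite and from 420 to 495 for both.

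In the replicate block, with only pairs of the same replicate number, hmC-Seal was higher at 44.5% of common sites and bisulfite at 11.8%, the overlap was 16.3% and 33.4%, the summit distance 12 bp, the correlation 0.552, and the 4 tested values were 2.72, 2.01, 0.883 and 5.79 as before. The labels do not show that hmC-Seal and bisulfite replicates of 1 number share a cell pool. Over 380 common sites the difference between replicates in hmC-Seal and in bisulfite had a Pearson r of -0.00402 and a Spearman rho of -0.0348, which shows no sign of pairing. Equal list length gives no value for the number of regions.

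Depth limits these lists: hmC-Seal library 2 has an estimated coverage of 0.156, and its regions of 3 or 4 fragments cannot place a summit or a rank closely. Both preparations have 2 libraries of 1 line. A region outside a list was not called there, which does not show that it was unbound. Bisulfite does not tell 5-methylcytosine from 5-hydroxymethylcytosine, so a region in both preparations does not show which of them its bisulfite reads carry, and no list gives a methylation level. Which IgG served as control is not stated for the hmC-Seal lists.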
